A study of Mus musculus with 9 samples.

Results

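The genes described here are 10 genes that mark the cortical hem and the neighbouring dorsal midline of the embryonic forebrain: the Wnt ligands Wnt3a (ENSMUSG00000009900_at), Wnt8b (ENSMUSG00000036961_at), Wnt2b (ENSMUSG00000027840_at) and Wnt5a (ENSMUSG00000021994_at), the Bmp ligands Bmp4 (ENSMUSG00000021835_at), Bmp6 (ENSMUSG00000039004_at) and Bmp7 (ENSMUSG00000008999_at), and the transcription factors Msx1 (ENSMUSG00000048450_at), Msx2 (ENSMUSG00000021469_at) and Lmx1a (ENSMUSG00000026686_at). They were listed by name as hem genes, by someone to whom earlier results of these data were known, and found in the deposited table by their Ensembl identifiers, which carry the suffix _at there. Of the 10 genes, 8 have an entry among the 12188 genes of the table, and Wnt2b and Msx2 are not analysed here. All 8 were tested, since no filter on low values was applied. The study compared the dorsal telencephalon, the forebrain wall that forms the cerebral cortex, of mouse embryos with and without Dicer, the ribonuclease that matures microRNAs. RNA of each embryo was hybridised to 1 one-colour Affymetrix array.

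The 5 knockout embryos (numbered 5, 7, 9, 10 and 11 in the labels) carry the genotype dicer knockout and are described as depleted of microRNAs. The series title calls the knockout conditional, but neither the Cre driver nor the cells that lost Dicer are named in the labels. The 4 embryos of the other group (numbered 1 to 4) are labelled control with microRNAs present, and their titles begin with HTZ, so they are not assumed to be wild type. Both groups are of the strain C57Bl6/J and of stage E13.5, counted in days of embryonic development. All knockouts are labelled male, controls 1 and 2 female, and controls 3 and 4 male. The labels do not assign embryos to litters, so some may have shared one, and p-values treat all 9 embryos as independent.

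The cortical hem is a strip of neuroepithelium at the medial edge of the cortex. It secretes Wnt and Bmp proteins, which pattern the adjacent hippocampal primordium and the choroid plexus, and it gives rise to many Cajal-Retzius neurons. Wnt ligands bind Frizzled receptors and stabilise beta-catenin or act through other routes, whereas Bmp ligands activate receptor kinases that phosphorylate Smad proteins. Lmx1a is a LIM homeodomain factor of the roof plate and hem, and Msx1 is a homeodomain factor that Bmp signals induce at the dorsal midline.

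One array stood apart before any hem gene was considered. Control 4 deviated from the mean of the other controls by 0.397 log2 units (root mean square over all genes), against 0.177 to 0.216 for controls 1 to 3 and 0.166 to 0.274 for the knockouts. Array medians ran from 7.61 (knockout 5) to 7.75 (control 4) on the log2 scale. Results are therefore given with and without control 4. The level of Dicer1 and markers of the cortex, choroid plexus, meninges and Cajal-Retzius cells are not analysed here, because the table lists identifiers without gene names, so the tissue label was not checked against markers beyond the hem genes.

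None of the 8 hem genes differed between knockout and control at a limma adjusted p under 0.05 (0 of 8), against 24.6% of all 12188 genes. At an unadjusted p under 0.05, 1 of 8 passed (Bmp7), against 36.7% of all genes. The knockout and control values did not overlap at 1 of 8 (Bmp7 again), against 24.1% of all genes. Of the 8 differences, 6 were below 0, with a median of -0.30 log2 units, while the median of all genes was -0.016 and 52.8% of them were below 0. Without control 4 the median of the hem genes was -0.075 and that of all genes -0.015, with 6 of the 8 again below 0. In whole tissue, fewer hem cells and less RNA per cell cannot be told apart.

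The spread within groups was large at these genes, and control 4 carried much of it. The residual SD within groups was 0.0959 log2 units for Wnt3a and lay between 0.314 and 0.497 for the other 7, where the median over all genes was 0.143. On this measure those 7 genes stood at percentiles 90.8 to 98.1 of all genes, and Wnt3a at percentile 20.5. The median standard error of the knockout minus control difference was 0.209 log2 units for the hem genes and 0.0938 for all genes. Without control 4 these medians were 0.134 and 0.0912, the standard error of Bmp4 fell from 0.28 to 0.12, and the residual SDs of the 7 genes stood at percentiles 68.9 (Msx1) to 95.7 (Wnt5a). Their mean signals lay between percentile 26.2 of all genes (Lmx1a) and percentile 61.2 (Msx1), and no detection call came with the values.

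**Figure D1:**
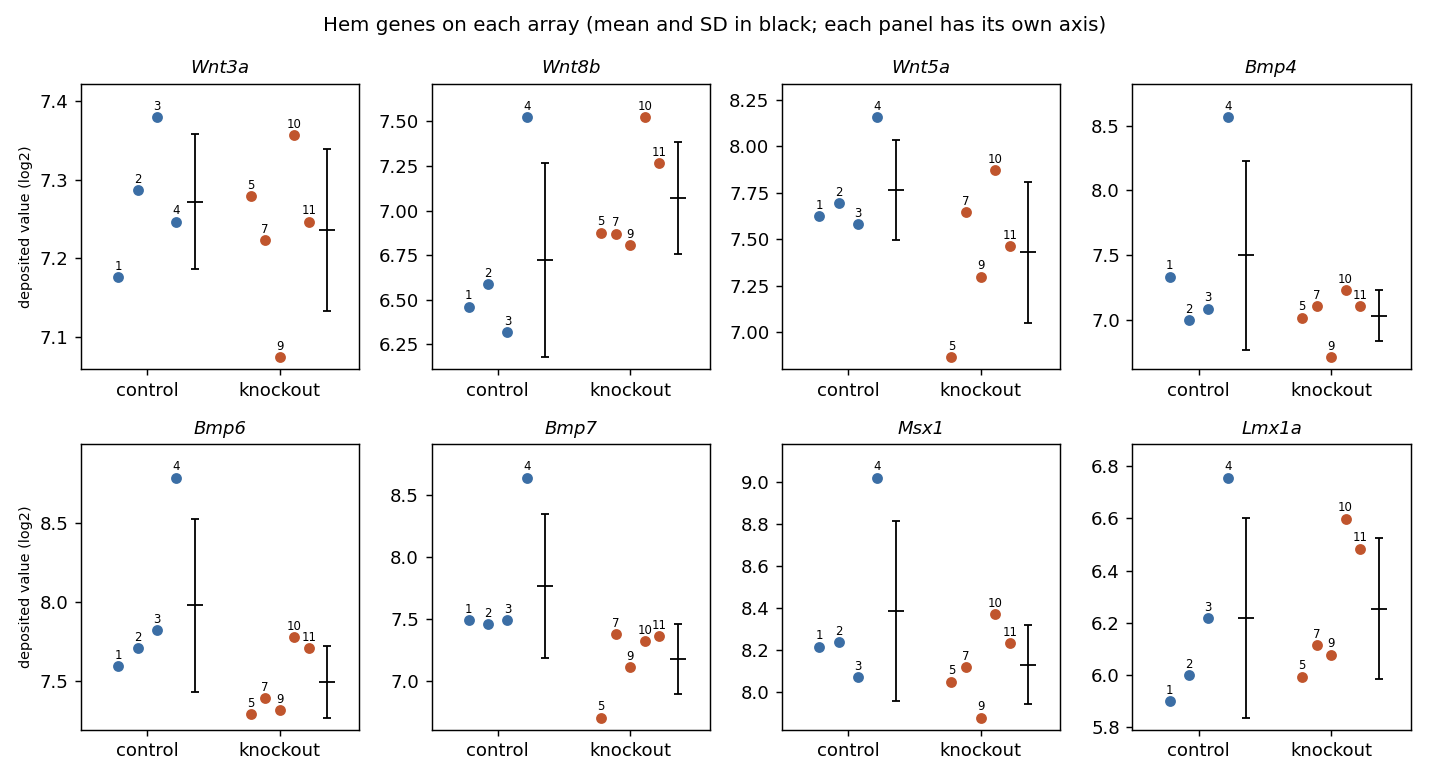
Deposited log2 value (vertical axis, scaled per gene) of the 8 hem genes on each array, by genotype, with the embryo number at each point and the group mean and SD in black. Control 4 is the highest control at all genes except Wnt3a, and it reaches 8.57 for Bmp4 where controls 1 to 3 lie between 7.003 and 7.34.

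Wnt3a, the hem ligand needed in the mouse for growth of the hippocampus, was nearly level across the embryos. Its log2 values were 7.18, 7.29, 7.38 and 7.25 in controls 1 to 4. In knockouts 5, 7, 9, 10 and 11 they were 7.28, 7.22, 7.08, 7.36 and 7.25. The groups overlapped almost entirely, and control 4 lay inside the range of the other controls. The difference was -0.036 log2 units (SE 0.073, 95% interval -0.20 to 0.13, limma adjusted p = 0.764), the narrowest interval of the 8 genes.

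Wnt8b, a ligand of the hem and the adjoining hippocampal primordium, was low in controls 1 to 3 and higher in every knockout. Its log2 values were 6.46, 6.59 and 6.32 in controls 1 to 3 and 7.52 in control 4. In the knockouts they were 6.88 (knockout 5), 6.87 (knockout 7), 6.80 (knockout 9), 7.53 (knockout 10) and 7.27 (knockout 11). All 5 knockouts lay above controls 1 to 3, and control 4 lay within the knockout range, next to knockout 10. Over all 9 arrays the knockout mean was 7.07 ± 0.31 (SD, n = 5) and the control mean 6.72 ± 0.54 (SD, n = 4), a difference of 0.35 log2 units (SE 0.24, 95% interval -0.20 to 0.89, limma adjusted p = 0.342).

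Without control 4, Wnt8b was the 1 hem gene of 8 with a call, against 26.8% of all genes called and 12.2% called higher in the knockout. Its control mean was then 6.46 ± 0.13 (SD, n = 3), and the difference was 0.61 log2 units, or 1.53-fold (SE 0.16, 95% interval 0.25 to 0.98, limma adjusted p = 0.0203). The call was also made without control 4 after quantile normalization (difference 0.60, adjusted p = 0.0174) and after subtraction of the array medians (0.62, adjusted p = 0.0140). In these fits 3460 and 3381 of the 12188 genes were called, in that order. Weighting the arrays by their estimated quality, with all 9 kept, gave 0.57 (limma adjusted p = 0.0161), in a fit that called 4562 of all genes. Over all alternatives the adjusted p ran from 0.0140 to 0.797, and the estimated weight of control 4 was the lowest of the 9 arrays, at 0.243 where the others had 0.366 to 2.95. The difference was 0.21 without control 3. Against the 2 control males alone, controls 3 and 4, which lie at 6.32 and 7.52, the difference was 0.15 log2 units (95% interval -0.53 to 0.82, adjusted p = 0.772).

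Wnt5a, a ligand that acts largely without beta-catenin, had its lowest values in knockouts. Controls 1 to 4 were at 7.62, 7.69, 7.58 and 8.16 log2 units. Knockouts 5, 7, 9, 10 and 11 were at 6.87, 7.65, 7.30, 7.87 and 7.46. Knockouts 5, 9 and 11 lay below every control, whereas knockouts 7 and 10 lay among the controls. The difference was -0.34 log2 units (SE 0.19, 95% interval -0.76 to 0.094, limma adjusted p = 0.241), and -0.20 both without control 4 (adjusted p = 0.470) and without knockout 5 (adjusted p = 0.416). The range over the knockouts, 1.003 log2 units, was the widest of the 8 genes and stood at percentile 97.2 of such ranges over all genes.

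RefSeq promoter windows were matched by gene name for 8 of the 10 listed genes on GRCm38.p6, and the 250 bases before the annotated start were searched on both strands. Wnt3a, whose values were level, and Wnt8b, whose values differed between controls 1 to 3 and the knockouts, are shown as the contrasting Wnt ligands, and Bmp4 as the gene with the widest excess in control 4. Capitals mark the matches found. Each window ends at the base before the start and is read on the gene's strand.
Wnt8b (chr19:44493222-44493471, plus strand): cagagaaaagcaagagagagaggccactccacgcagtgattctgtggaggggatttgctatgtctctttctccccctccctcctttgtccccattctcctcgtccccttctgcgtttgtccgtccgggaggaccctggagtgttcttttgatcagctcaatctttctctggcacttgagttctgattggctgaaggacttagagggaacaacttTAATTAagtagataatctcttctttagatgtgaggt
Wnt3a (chr11:59290752-59291001, minus strand): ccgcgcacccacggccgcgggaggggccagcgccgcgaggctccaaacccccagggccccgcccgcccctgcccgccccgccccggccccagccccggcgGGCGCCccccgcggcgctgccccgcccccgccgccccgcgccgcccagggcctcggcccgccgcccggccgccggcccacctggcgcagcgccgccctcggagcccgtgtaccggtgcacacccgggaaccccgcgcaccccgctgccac
Bmp4 (chr14:46390670-46390919, minus strand): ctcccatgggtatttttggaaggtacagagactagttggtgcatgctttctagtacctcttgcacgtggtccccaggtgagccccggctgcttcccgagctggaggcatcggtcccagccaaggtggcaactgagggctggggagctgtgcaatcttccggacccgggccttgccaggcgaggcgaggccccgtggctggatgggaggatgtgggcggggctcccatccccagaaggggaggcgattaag
The Wnt8b window holds 1 homeodomain word (TAATTA or TAATTG), which begins 36 bases before the start, and 11.3% of 32817 RefSeq windows of the same length hold one. The Msx2 window holds 1 as well, 187 bases before the start. The Wnt3a window, with a GC content of 87.6% against 48.4% for Wnt8b, holds 1 GC-rich word bound by Smad proteins (GGCGCC), found in 9.59% of the windows, and the Wnt2b window holds 2. No window of the 8 genes holds a Tcf/Lef word (CTTTG followed by 2 letters that are each A or T), which 14.8% of all windows have, and the Bmp4, Bmp6, Msx1 and Lmx1a windows hold none of the 3 motifs. The Lmx1a window (chr1:167689308-167689557, plus strand) lies inside the gene, which begins at 167688230. For Lmx1a the start used is thus a later one than the start of the gene. The matches describe letters in short windows and say nothing of binding.

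The 3 Bmp ligands all had lower means in the knockout, with differences of -0.46 to -0.59 log2 units, none of which passed the adjusted threshold. Bmp4, a ligand of the telencephalic dorsal midline, was at 7.34, 7.003 and 7.09 log2 units in controls 1 to 3 and at 8.57 in control 4. The knockouts were at 7.02, 7.11, 6.72, 7.23 and 7.11 (knockouts 5, 7, 9, 10 and 11). Apart from control 4 the groups largely overlapped. The difference was -0.46 log2 units (SE 0.28, 95% interval -1.09 to 0.16, limma adjusted p = 0.268), and -0.11 (95% interval -0.37 to 0.16, adjusted p = 0.571) without control 4.

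Bmp6, expressed along the same midline, was at 7.60, 7.71 and 7.82 log2 units in controls 1 to 3 and at 8.78 in control 4. Knockouts 5, 7 and 9 lay below every control, at 7.29, 7.40 and 7.32, and knockouts 10 and 11 lay among controls 1 to 3, at 7.78 and 7.71. The difference was -0.48 log2 units (SE 0.23, 95% interval -0.98 to 0.022, limma adjusted p = 0.153), and -0.21 (adjusted p = 0.248) without control 4.

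Bmp7, a ligand made by midline cells and by the meninges, was the 1 hem gene whose groups did not overlap. Controls 1 to 3 were nearly equal at 7.49, 7.46 and 7.49 log2 units and control 4 was at 8.64. The knockouts were at 6.71 (knockout 5), 7.38 (knockout 7), 7.11 (knockout 9), 7.32 (knockout 10) and 7.36 (knockout 11), so that the highest knockout lay just under the lowest control. The means were 7.18 ± 0.28 (SD, n = 5) and 7.77 ± 0.58 (SD, n = 4), a difference of -0.59 log2 units, 1.51-fold lower in the knockout (SE 0.25, 95% interval -1.14 to -0.041, limma adjusted p = 0.111). Without control 4 the difference was -0.30 (95% interval -0.62 to 0.018, adjusted p = 0.151), and Bmp7 and Wnt8b were the 2 of 8 genes whose groups did not overlap, against 33.1% of all genes.

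Msx1 was at 8.22, 8.24, 8.07 and 9.02 log2 units in controls 1 to 4 and at 8.05, 8.12, 7.88, 8.37 and 8.24 in knockouts 5, 7, 9, 10 and 11. The groups overlapped, and the difference was -0.26 log2 units (SE 0.18, 95% interval -0.66 to 0.15, limma adjusted p = 0.348), or -0.044 (adjusted p = 0.814) without control 4. Lmx1a was at 5.90, 5.997, 6.22 and 6.76 in controls 1 to 4 and at 5.99, 6.12, 6.08, 6.60 and 6.48 in the knockouts in the same order. Knockouts 10 and 11 lay above controls 1 to 3, and the other knockouts among them. The difference was 0.035 log2 units (SE 0.19, 95% interval -0.38 to 0.45, limma adjusted p = 0.913) and 0.22 (adjusted p = 0.323) without control 4, and it was below 0 in 6 of 18 alternatives, so no direction is given for Lmx1a.

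**Figure D2:**
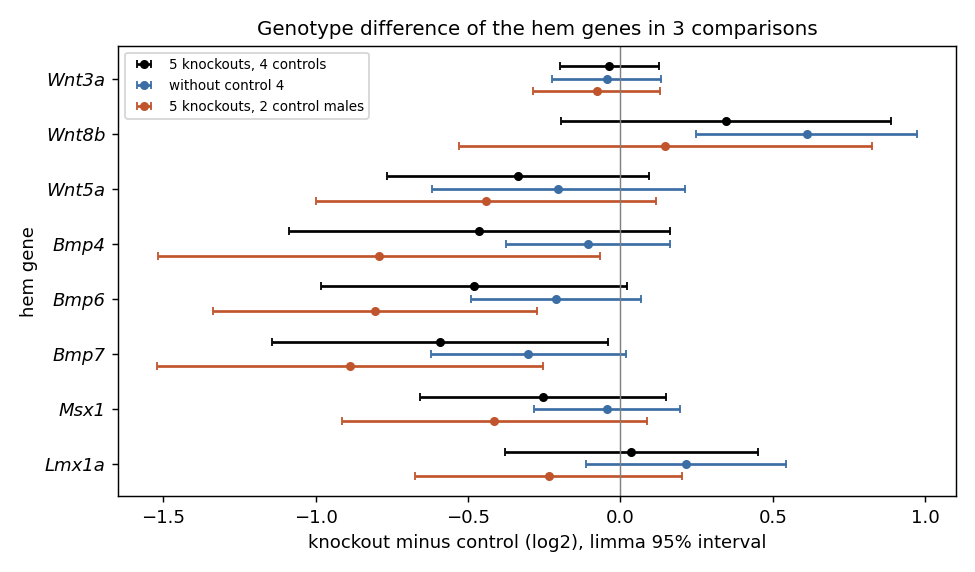
Knockout minus control difference (horizontal axis, log2 units) of each hem gene with its limma 95% interval, for 5 knockouts against 4 controls, without control 4, and against the 2 control males. The interval of Wnt8b leaves out 0 only without control 4, and the Bmp intervals lie farthest below 0 against the control males.

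Because all knockouts were labelled male, the hem genes were also read from the contrast with the 2 control males in a limma fit of 3 groups. Again 0 of 8 passed an adjusted p under 0.05, against 10.5% of all genes. The 3 Bmp ligands had larger differences there, of -0.79 for Bmp4 (adjusted p = 0.134), -0.80 for Bmp6 (adjusted p = 0.0586) and -0.89 for Bmp7 (adjusted p = 0.0716). Control 4 is 1 of the 2 control males, and with control 3 left out it is the only one. In that fit Bmp4, Bmp6, Bmp7 and Msx1 were called (4 of 8), against 18.8% of all genes, with the lone male assumed to vary like the other groups. With control 4 left out instead, 0 of 8 were called, against 0.624% of all genes. With the dimmest 50% of genes left out, Bmp6 was called, 1 of the 2 hem genes that remained, against 23.7% of the brighter genes. This contrast shares its knockouts and control males with the comparison above.

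The hem genes were raised together in control 4. Its excess over the mean of controls 1 to 3 was 1.42 log2 units for Bmp4 (2.68-fold), 1.16 for Bmp7, 1.07 for Bmp6, 1.07 for Wnt8b, 0.84 for Msx1, 0.72 for Lmx1a and 0.52 for Wnt5a, and -0.034 for Wnt3a. An excess of at least 0.5 log2 units was found at 7 of 8 hem genes, against 8.51% of all genes, and one of at least 1 log2 unit at 4 of 8, against 2.63%. Control 4 had the highest value of all 9 arrays at 6 of 8 hem genes, against 21.3% of all genes. After quantile normalization or subtraction of the array medians the excess of at least 0.5 was found at 6 of 8. The shares of all genes were then 7.74% and 7.19%, in that order. These bounds were set after the values were seen, and they describe 1 array without a test. The share of hem, choroid plexus or meninges in the piece of tissue was not tested.

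**Figure D3:**
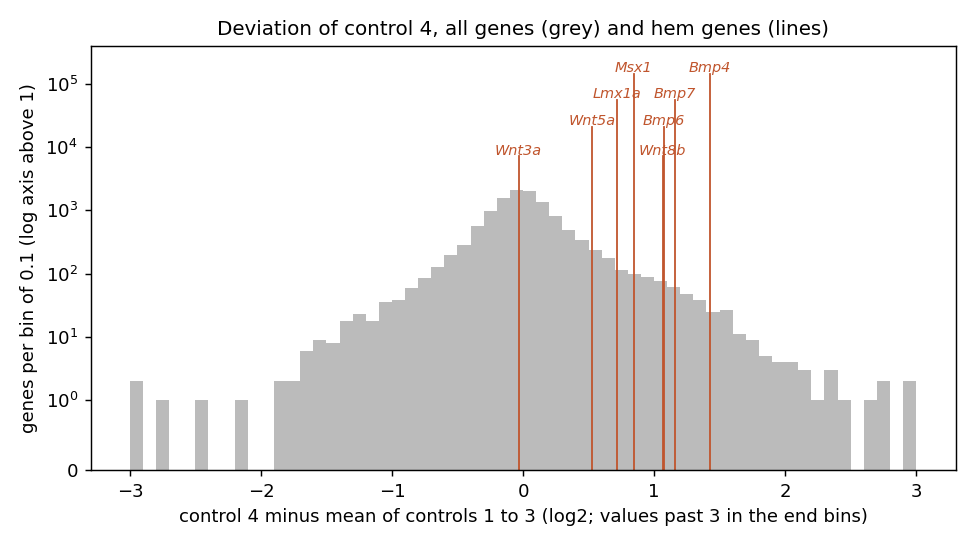
Difference of control 4 from the mean of controls 1 to 3 (horizontal axis, log2 units) over all 12188 genes as a histogram in bins of 0.1 (grey, number of genes on a log axis), with the 8 hem genes as vertical lines. Wnt3a lies in the bulk near 0, and the other 7 lie in the upper tail between 0.52 and 1.42.

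The knockouts also differed from each other. The embryos named next were picked from the values of these same 8 genes, so the counts describe them and are no test. Knockout 10 was the highest knockout at 7 of 8 hem genes, the exception being Bmp7, against 24.0% of all genes. Knockout 5 or knockout 9 was the lowest at 8 of 8, against 49.2% of all genes. Knockout 10 also had the highest array median of the knockouts (7.74) and knockout 5 the lowest (7.61). After either rescaling of the arrays knockout 10 was highest at 6 of 8 hem genes. The shares of all genes were 20.2% with quantile normalization and 14.2% with the medians subtracted. Knockout 5 or 9 was lowest at 8 of 8 after either rescaling, for which the share of all genes was not computed. Among the knockouts the range was 0.72 log2 units for Wnt8b, 0.67 for Bmp7, 0.61 for Lmx1a, 0.51 for Bmp4, 0.49 for Msx1, 0.48 for Bmp6 and 0.28 for Wnt3a. Over controls 1 to 3 the ranges ran from 0.034 (Bmp7) to 0.33 (Bmp4), but a range over 3 arrays is expected to be narrower than one over 5. Set against the same range of all genes, most hem genes stood higher among the knockouts than among controls 1 to 3. The contrast was widest for Bmp7 (percentile 90.0 against 4.49) and Wnt5a (97.2 against 30.2), and narrowest for Lmx1a (86.6 against 83.9). Wnt3a and Bmp4 were the exceptions, at percentiles 61.4 and 85.8 among controls 1 to 3 and 38.7 and 79.2 among the knockouts.

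**Figure D4:**
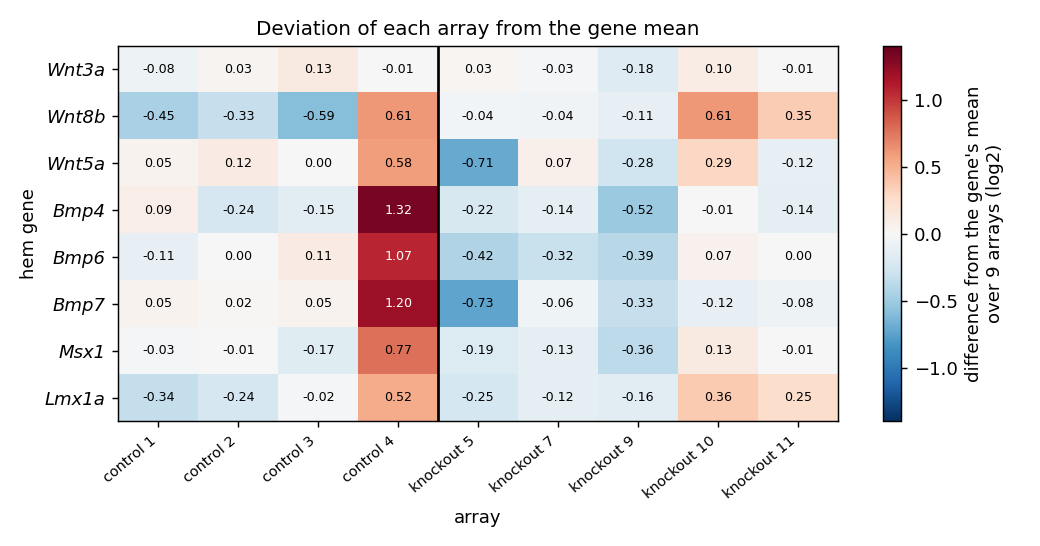
Difference of each array from the gene's mean over the 9 arrays (colour and printed value, log2 units) for the 8 hem genes (rows) on 4 controls and 5 knockouts (columns). Control 4 is above the mean by 0.52 to 1.32 at all genes except Wnt3a, and Wnt8b is the gene at which controls 1 to 3 are all well below the mean, by 0.33 to 0.60.

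The likeness of 2 genes was measured as the root mean square distance, over the 9 arrays, between their profiles after each gene's mean was subtracted. The closest pair was Bmp6 with Bmp7, at 0.168 log2 units. Bmp6 was the 54th closest of 12187 other genes to Bmp7, and Bmp7 the 62nd closest to Bmp6. Msx1 was the 74th closest gene to Bmp6, and Bmp6 the 83rd closest to Bmp4. Wnt8b lay apart from the Bmp ligands, at 0.429 to 0.514 log2 units, and among the hem genes was nearest to Lmx1a at 0.232, its 66th closest gene, whereas Wnt8b was the 889th closest to Lmx1a. The nearest hem gene was farther down the order for the remaining genes: 286th for Msx1, 387th for Wnt5a, 462nd for Lmx1a and 9245th for Wnt3a. All distances share the 9 arrays, control 4 among them, and are given as a description. The rule for naming further genes took those closest to a hem gene with a call, and none had one over the 9 arrays.

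To see whether the hem genes kept their proportions on each array, every hem gene was set against the mean of the other 7 on the same array. This measure was chosen after the values were seen, it is unaffected by the scaling of an array as a whole, and it gets no test. For Wnt8b it was -0.87, -0.75, -1.06 and -0.65 log2 units in controls 1 to 4 and -0.15, -0.41, -0.27, 0.022 and -0.11 in knockouts 5, 7, 9, 10 and 11. Control 4 now lay with the other controls, and all 5 knockouts lay above all 4 controls, by a gap of 0.23. The mean difference was 0.65 log2 units, or 1.57-fold, from -0.83 ± 0.18 (SD, n = 4) to -0.18 ± 0.16 (SD, n = 5). Without a reference the Wnt8b difference over all 9 arrays was 0.35 log2 units (limma adjusted p = 0.342). The rest of the 0.65 is the lower knockout mean of the other 7 hem genes, so it is not a rise of Wnt8b alone.

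Measured in this way, Bmp7 and Bmp6 lay lower in all 5 knockouts than in all 4 controls. Relative Bmp7 was 0.36 ± 0.18 (SD, n = 4) in the controls and -0.059 ± 0.21 (SD, n = 5) in the knockouts, with a gap of 0.073 between the groups. Relative Bmp6 was 0.60 ± 0.16 (SD, n = 4) against 0.31 ± 0.076 (SD, n = 5), with a gap of 0.028. The remaining 5 hem genes overlapped between the groups. In all, 3 of 8 hem genes were separated, against 9.79% of all genes set against the mean of the 8, with 1 of 8 higher (9.36% of all genes) and 2 of 8 lower (0.427%). The mean of the hem genes was itself lower in the knockout and raised in control 4. Both tilt the shares over all genes toward higher. A gene without the excess of control 4 can hardly lie lower in all knockouts. The 0.427% is therefore no base for judging the 2 of 8. The hem genes serve as each other's reference, so a higher Wnt8b lowers the others, and lower Bmp ligands raise Wnt8b. The gaps of Bmp6 and Bmp7 are small, and they were not measured with Wnt8b left out of the reference. Whether these gaps stand apart from the difference of Wnt8b was therefore not tested. The deposited values of Bmp7, which use no reference, did not overlap between the groups either, whereas those of Bmp6 did.

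**Figure D5:**
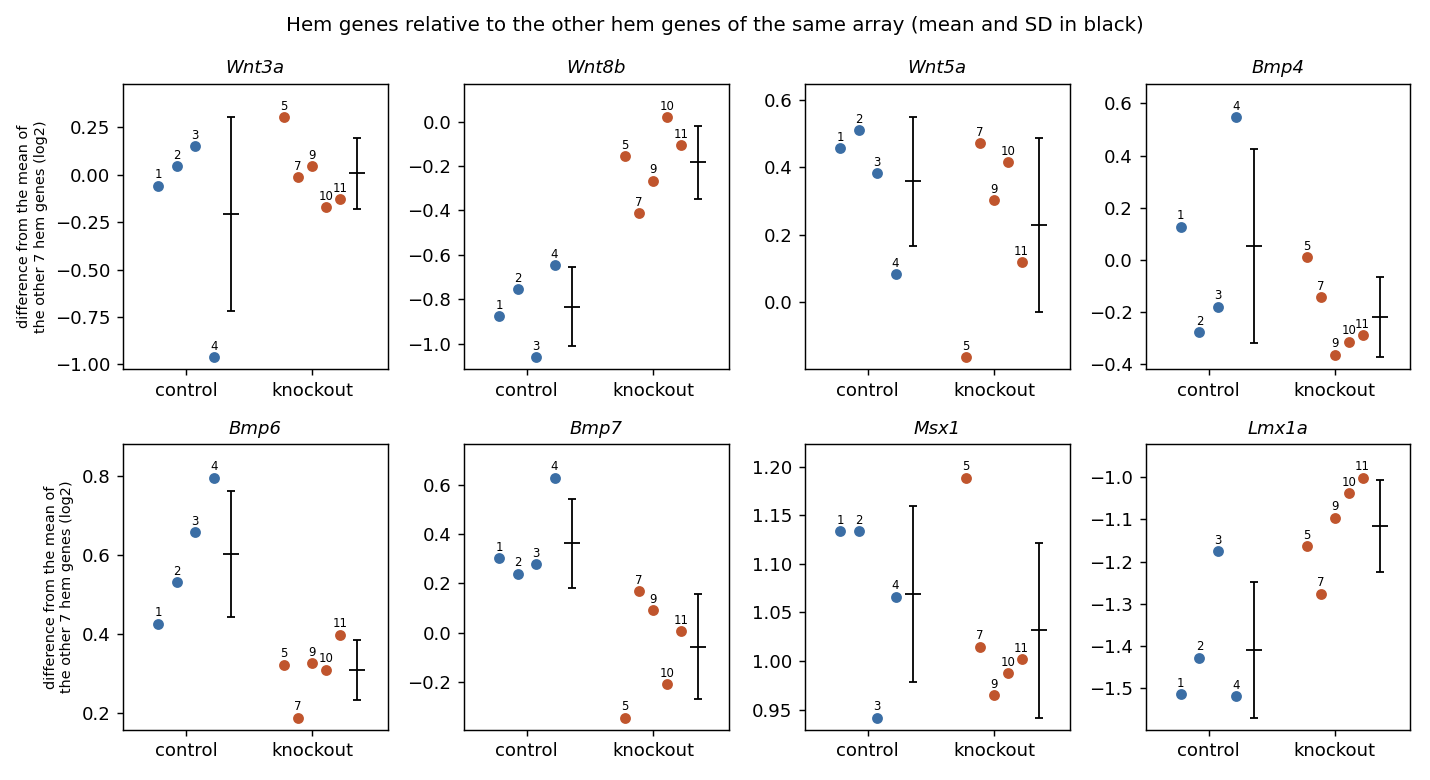
Each hem gene's log2 value minus the mean of the other 7 hem genes on the same array (vertical axis, log2 units, scaled per gene), by genotype, with embryo numbers and the group mean and SD in black. For Wnt8b, which has the Bmp ligands with their lower knockout means in its reference, all 5 knockouts lie above all 4 controls, control 4 included. Bmp6 and Bmp7, which have Wnt8b in their reference, lie lower in all knockouts by small gaps. The height of a panel has no meaning between genes.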

How the data were processed

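RNA of 9 mouse embryos was measured on Affymetrix arrays. The authors deposited log2 values, 1 for each gene on each array. They list affy as their tool, per the submitters' processing notes. Its version, background correction and normalization, and the array type, are not stated there. Background signal left in such values shrinks the differences of dim genes. No column lacked a sample (0 columns), and no pair of arrays was identical, with at most 2.08% of genes sharing a value.

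The RefSeq table (49997 genes, GRCm38.p6) pairs 0 genes with Ensembl identifiers, so only the listed genes, paired with identifiers where the list was made, are named. The planned lists of Wnt and Bmp pathway genes and of cell type markers were not run. The members and lists were chosen with earlier results of these data known.

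Differences come from limma 3.58.1 (R 4.3.3, functions lmFit and eBayes) on all 12188 genes, two-sided, with Benjamini-Hochberg adjustment over all of them and a threshold of 0.05. A second fit took 3 groups (knockouts, control males, control females). The fits were tested on simulated data. All listed genes in the table were named, by rule. The number of embryos limits the precision. The alternatives were a covariate for sex, a fit of males alone, quantile normalization, subtraction of array medians, omission of the dimmest 50% of genes, robust eBayes with a trend on intensity, array weights, separate variances per gene and omission of each array. The analyses combining rescaling with the omission of control 4, and the relative values, were added after the data were seen. Figures were drawn with matplotlib 3.10.9.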

Additional observations from a re-analysis of the deposited data

Results flagged for a closer look

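Bmp7 in control 4 was singled out because it lay far from the other controls: the gap between its 8.64 and the nearest control value, 7.49, made up 0.971 of the range of the group, past Dixon's 95% limit for a group of 4. Of 16 tests (8 hem genes in 2 groups) it was the 1 that passed, and chance singles out about 1 in 20 groups. The same measure for control 4 was 0.823 for Msx1, 0.810 for Bmp6, 0.806 for Wnt5a, 0.787 for Bmp4, 0.777 for Wnt8b and 0.628 for Lmx1a. The genes share the array, so these are not separate events.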

How the results depend on the processing

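The count of hem genes called between knockout and control was 0 in all alternatives except array weights (1), leaving out control 4 (0 to 1 over the 9 arrays left out), and leaving out control 4 with quantile normalization (1) or with array medians subtracted (1), and the gene was Wnt8b each time. Against control males it was 1 with the dimmest 50% of genes left out (Bmp6, in a fit of the brighter genes that holds 2 hem genes, Bmp6 and Msx1) and 0 to 4 with 1 array left out, where 0.624% to 18.8% of all genes were called. Over all genes 2997 were called, against 1285 with sex as a covariate, which equals the contrast with control males, 324 in males only, 4562 with array weights, 1973 with separate variances per gene and 1976 to 3263 with 1 array left out. With the array medians subtracted 1498 called genes were higher and 1500 lower, against 1341 and 1656. The cause of these shifts was not tested. Lmx1a turned to -0.23 log2 units with sex as a covariate and in males only, and ran from -0.071 to 0.22 with 1 array left out. Wnt3a ran from -0.068 to 0.0042 there. The other 6 hem genes kept their sign, which shared arrays largely fix. No paired analysis was possible because the groups share no replicate number. Without detection calls, the depth of signal over background is unknown.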
